A study of Mus musculus with 11 samples.

Results

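The genes described here are 37 genes of glycolysis and of the response to low oxygen, chosen by name from the 21860 genes of the deposited table. The first 21 are enzymes of glycolysis and of the entry of pyruvate into mitochondria, and the other 16 are subunits, regulators and targets of the hypoxia-inducible factors (HIF). All 37 were in the table and all 37 passed the filter on low values. They were measured by RNA sequencing of CD11b-low EpCAM+ cells sorted on day 6 from cultures of mouse bone marrow monocytes, 11 samples in 5 groups. GM-CSF (20 ng/ml) was in every culture. The TGFβ/IL-34 group (2 samples) also received 5 ng/ml of TGFβ and 8 µg/ml of IL-34, the TGFβ/IL-34/FICZ group (2 samples) received FICZ in addition, the TGFβ/IL-34/Jag1 group (3 samples) received the Notch ligand Jagged-1, and the TGFβ/IL-34/Jag1/FICZ group (3 samples) received both. The Jag1 only group was 1 sample with Jag1 but without TGFβ, IL-34 or FICZ, so it is described with no test. FICZ is a ligand of the aryl hydrocarbon receptor Ahr. The design text of the series calls it an antagonist of Ahr and the study uses it as an agonist.

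Jag1 was presented by OP9 cells, a mouse bone marrow stromal line, and monocytes were seeded at a lower density on OP9 than in wells without stroma. The treatment text describes OP9 co-culture for all samples, and no sample was labelled as OP9 without Jag1. Jag1, the stromal cells and the seeding density cannot be told apart in these data. Nothing in the labels says that replicates came from separate animals, so p-values measure the spread between these samples. In bulk RNA, fewer cells of a type and less RNA per cell cannot be told apart.

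Glycolysis splits glucose into pyruvate, which is either turned into lactate by lactate dehydrogenase or passed into mitochondria by the pyruvate dehydrogenase complex. When oxygen is plentiful, the prolyl hydroxylases encoded by the Egln genes mark HIF-1α and HIF-2α (Epas1) for destruction, and when oxygen is low the α subunits escape, pair with Arnt and bind a short core in DNA near genes for glucose use, angiogenesis and mitophagy. Arnt is also the partner of ligand-bound Ahr, which binds a similar core, and Egln3, Vegfa, Bnip3 and Pdk1 are textbook HIF targets.

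Promoter windows from RefSeq (GRCm38.p6, 250 bases before to 50 after a start) were given for 35 of the 37 members, and Ndrg1 and Epas1 had none. The letters ACGTG, the HIF core, stood on either strand in 50% of the 50 members' windows and in 19.6% of all 32851 windows of the same length. The letters GCGTG, the Ahr core, stood on either strand in 52.0% of the members' windows and in 32.4% of all windows. At least 1 window held the HIF core in 22 members, and at least 1 held the Ahr core in 22. A match describes the letters and is not a binding site. The stretches shown are those around a HIF core that lay with its flanks before the start, in the members called with a log2 fold change of at least 1 in size in any comparison. Each matched GRCm39 once, at the coordinates given, and is written 5′ to 3′ on the strand of its gene, with both cores in capitals on either strand. In the Bnip3 stretch the palindrome is the HIF core on both strands at once.
Egln3, chr12:54250859-54250910, minus strand: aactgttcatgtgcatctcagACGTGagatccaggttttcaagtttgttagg
Egln1, chr8:125676046-125676072, minus strand: ggccgtggtgtACGTGcagcgcgcgcg
Bnip3, chr7:138511312-138511368, minus strand: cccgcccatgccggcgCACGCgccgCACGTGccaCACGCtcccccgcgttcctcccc
Mxi1, chr19:53317752-53317808, plus strand: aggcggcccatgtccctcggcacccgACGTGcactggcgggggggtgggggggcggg
Hk3, chr13:55169324-55169380, minus strand: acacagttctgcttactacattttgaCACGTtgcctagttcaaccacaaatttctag
Vegfa, chr17:46336285-46336311, minus strand: gagtGCGTGccCACGTcagagagcaac
Pgk1, chrX:105230549-105230605, plus strand: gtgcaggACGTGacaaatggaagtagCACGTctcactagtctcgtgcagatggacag
Pdk3, chrX:92875794-92875820, minus strand: gcgcgccgcgtACGTGcggcggcagat
Pfkfb3, chr2:11558785-11558811, minus strand: tccgcgccgtgACGTGccaagctgtga
P4ha2, chr11:53991661-53991687, plus strand: gtgcatcgcatACGTGcagcGCGTGgc
Ddit4, chr10:59787764-59787790, minus strand: gaacgttgcgaACGTGcgcccggtgcc

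The samples held 21.3 to 27.8 M normalised counts each, which corresponds to about 20.6 to 24.3 M reads, and a floor of 3 reads was worth 2.68 to 3.44 normalised counts. Samples of 1 group correlated at r = 0.922 to 0.980 across genes, and the lowest value was that of the pair of TGFβ/IL-34/FICZ samples. In that pair replicate 1 stood apart in several members. Gpi1 was at 32518 in replicate 1 and 12359 in replicate 2, and Kdm3a was at 331 and 852. That replicate 1 and TGFβ/IL-34/Jag1/FICZ replicate 1 shared a flow cell code, and all other samples shared another. Both of these samples received FICZ, so flow cell and FICZ cannot be fully told apart. Epcam, the surface protein of the sort, was at 3952 to 14376 in the 10 samples with TGFβ and IL-34 and at 657 in the Jag1 only sample. Cd207, which encodes langerin and defines Langerhans cells, was at 154 and 157 in TGFβ/IL-34, 1366 to 1784 with Jag1, 6.21 and 6.90 with FICZ, 6.29 to 132 with both and 21.8 in Jag1 only. Epcam RNA was thus present in every sample, and Cd207 was within a few reads of the floor in 4 of the 5 samples that received FICZ. Cd207 is 1 of 8 Langerhans-like genes listed, and the sum of the 8 was far from the floor in every sample. It was 787796 to 913403 in TGFβ/IL-34, 563970 to 937885 with FICZ, 1031870 to 1175840 with Jag1, 371863 to 524718 with both and 246802 in Jag1 only. Cd74 had the largest mean of the 8 in every group.

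**Figure D1:**
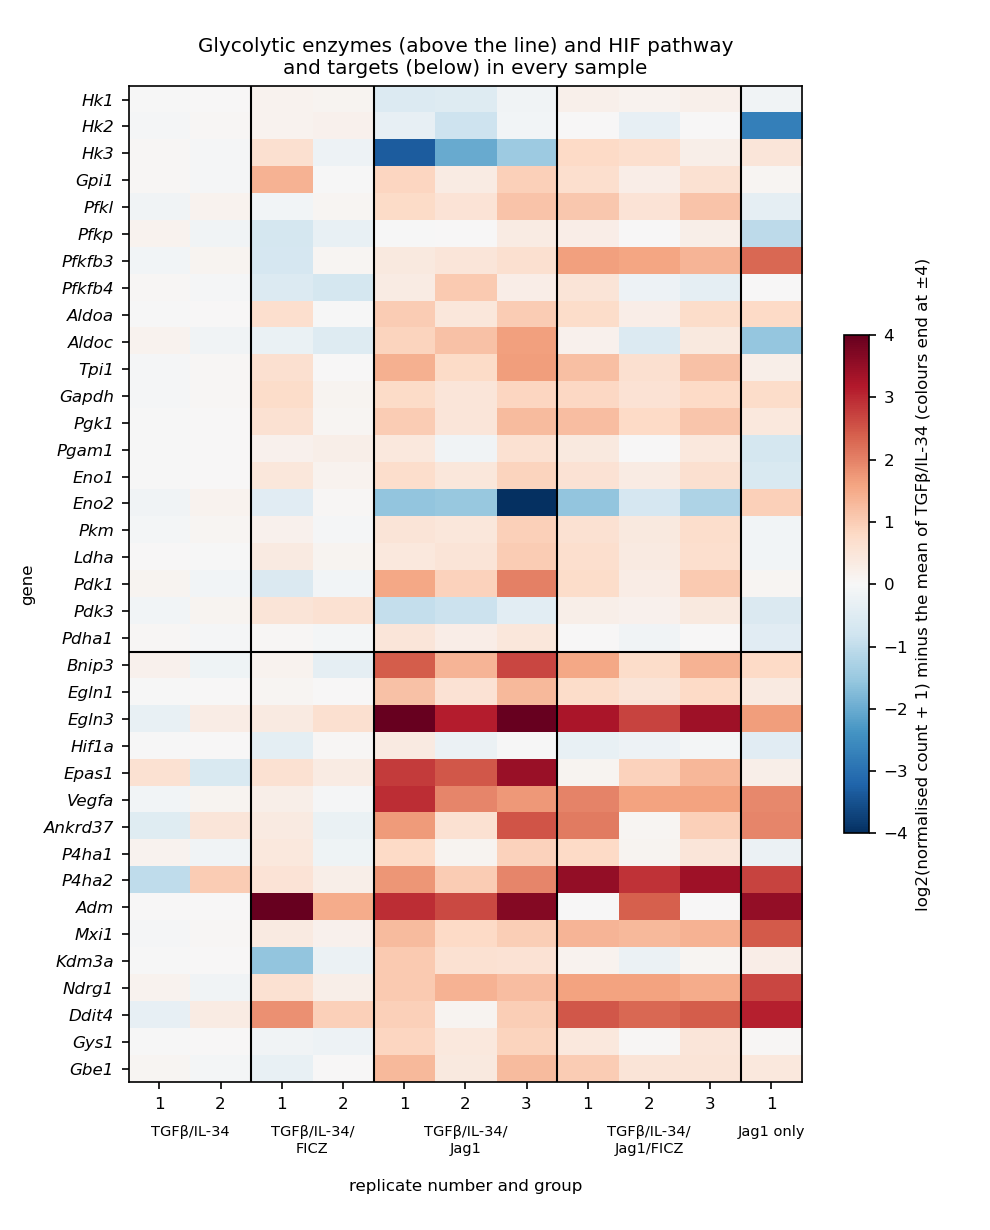
Heat map of the 37 members (rows) in the 11 samples (columns, by group and replicate). Colour gives log2(normalised count + 1) minus the mean of the 2 TGFβ/IL-34 samples. The darkest red among the HIF genes with Jag1 is Egln3, which stood at 2063 to 5296 in the 3 TGFβ/IL-34/Jag1 samples.

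With Jag1 and no FICZ, the oxygen sensor Egln3, the growth factor Vegfa and 5 other genes of the HIF list rose, and 5 of the 21 glycolysis genes changed. Against TGFβ/IL-34, 12 of the 37 members were called, 10 higher and 2 lower, where 6.6% of all 13095 genes tested were called (2.64% higher). A call is a two-sided limma test on log2(normalised count + 1) with a Benjamini-Hochberg adjusted p under 0.05 over all genes tested. The HIF list had 7 of 16 genes called, all higher, and the glycolysis list had 5 of 21, of which 3 were higher. The estimate was above 0 for 16 of 16 HIF genes and 16 of 21 glycolysis genes, and for 49.5% of all genes. The median log2 fold change was 1.12 for the HIF list, 0.64 for glycolysis and −0.0041 for all genes tested.

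The prolyl hydroxylase Egln3, one of the oxygen sensors that HIF itself induces, had the largest estimate among the 37 in the comparison of Jag1 with TGFβ/IL-34. Its level was 189 and 292 normalised counts in TGFβ/IL-34, 300.4 and 371 with FICZ, 4486, 2063 and 5296 with Jag1, 2265, 1533 and 2472 with both, and 750.2 in Jag1 only. Every sample with Jag1 was above every sample without it, and the Jag1 and Jag1/FICZ samples overlapped. Egln3 rose with Jag1 by 3.96 ± 0.385 (log2 fold change ± SE, limma, adjusted p 0.000364), a 16.4-fold ratio of means, and the call held in each of the 5 fits that left out 1 sample. Egln1, the widely expressed hydroxylase, was at 1482 and 1541 in TGFβ/IL-34, 1587 and 1521 with FICZ, 3415, 2262 and 3736 with Jag1, 2505, 2161 and 2608 with both, and 1935 in Jag1 only. All 6 samples with Jag1 and the cytokines were above the 4 without Jag1. Egln1 rose by 1.02 ± 0.213 (limma, adjusted p 0.0187). Per kilobase of transcript, Egln3 made up 20.5% ± 4.51 (SD, n = 2) of the sum of Egln1 and Egln3 in the TGFβ/IL-34 samples, and 66.1% ± 5.36 (SD, n = 3) where Jag1 was added. The shares of the Jag1 samples ran from 60.0% to 69.9% and those of TGFβ/IL-34 from 17.3% to 23.7%, with no overlap. Egln2, outside the 37, was left out of this sum, so these are not shares of all Egln transcripts. It had means of 1106 ± 167 in TGFβ/IL-34 (SD, n = 2) and 1287 ± 216 with Jag1 (SD, n = 3). Its canonical transcript has 2132 bases, against 4414 for Egln1.

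The transcripts of the HIF subunits themselves gave another picture. Hif1a was at 6479 and 6603 in TGFβ/IL-34, 4950.1 and 6768 with FICZ, 8439, 5506 and 6425 with Jag1, 5345, 5707 and 6143 with both, and 4759.8 in Jag1 only. The 4 groups with TGFβ and IL-34 overlapped except that TGFβ/IL-34 lay above the samples with both, and the Jag1 only sample lay below every other sample. Its change with Jag1 was 0.03 (limma, 95% interval −0.43 to 0.49, adjusted p 0.964), and it was not called in any of the 6 comparisons. Arnt, the shared partner of HIF and Ahr, changed by −0.02 with Jag1 (95% interval −0.58 to 0.55, limma, adjusted p 0.986) and by −0.16 when FICZ was added to Jag1 (95% interval −0.67 to 0.34, limma, adjusted p 0.703), and it was also not called in any comparison.

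Epas1, the HIF-2α transcript, was scarce throughout. It was at 5.76 and 1.90 in TGFβ/IL-34, 5.76 and 4.50 with FICZ, 29.6, 23.9 and 47.0 with Jag1, 3.72, 7.30 and 10 with both, and 4.15 in Jag1 only. The 3 Jag1 samples stood above all others, and most of the others lay within a few reads of the floor. Epas1 rose with Jag1 by 2.91 ± 0.66 (limma, adjusted p 0.0276) and fell by 2.14 ± 0.59 when FICZ was added to Jag1 (limma, adjusted p 0.0313). Per kilobase it was at most 0.899% of the sum of Hif1a and Epas1 in any sample. The call with Jag1 was lost with the replicate number as a block (limma, adjusted p 0.0663) and held in only 1 of 5 fits that left out 1 sample. The call with FICZ was lost with the flow cell (limma, adjusted p 0.0632) or the experiment code of the authors' metadata (limma, adjusted p 0.0537) as a term.

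Among the HIF targets, Vegfa, Bnip3, Ndrg1 and Mxi1 rose with Jag1. Vegfa, the main angiogenic growth factor, was at 2912 and 3344 in TGFβ/IL-34, 3702 and 2991 with FICZ, 23984, 12206 and 10371 with Jag1, 12326, 9512 and 9546 with both, and 11762 in Jag1 only. Every sample with Jag1 was above every sample without it, by a wide margin, and replicate 1 was the highest within both Jag1 groups. Vegfa rose by 2.21 ± 0.314 (limma, adjusted p 0.00263) and was called in each of the 5 fits without 1 sample. Bnip3, a receptor for the removal of mitochondria, was at 698 and 559 in TGFβ/IL-34, 693 and 482 with FICZ, 3352, 1614 and 3989 with Jag1, 1809, 1029.6 and 1625 with both, and 1081 in Jag1 only. Its 3 Jag1 samples lay above all samples without Jag1 and overlapped those with both. Bnip3 rose by 2.15 ± 0.38 (limma, adjusted p 0.00795).

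Ndrg1, a stress-induced gene of differentiation, was at 3084 and 2531 in TGFβ/IL-34, 4309 and 3263 with FICZ, 5760.0, 7272 and 6628 with Jag1, 8566, 8523 and 7763 with both, and 17741 in Jag1 only. The groups were ordered without overlap, with the Jag1 only sample above all others. Ndrg1 rose with Jag1 by 1.22 ± 0.182 (limma, adjusted p 0.00332). Mxi1, an antagonist of Myc, was at 1250.1 and 1321 in TGFβ/IL-34, 1655 and 1456 with FICZ, 3105, 2236 and 2517 with Jag1, 3278, 3140.5 and 3385 with both, and 7112 in Jag1 only. Mxi1 had the same order of groups without overlap. It rose with Jag1 by 1.01 ± 0.17 (limma, adjusted p 0.00621).

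**Figure D2:**
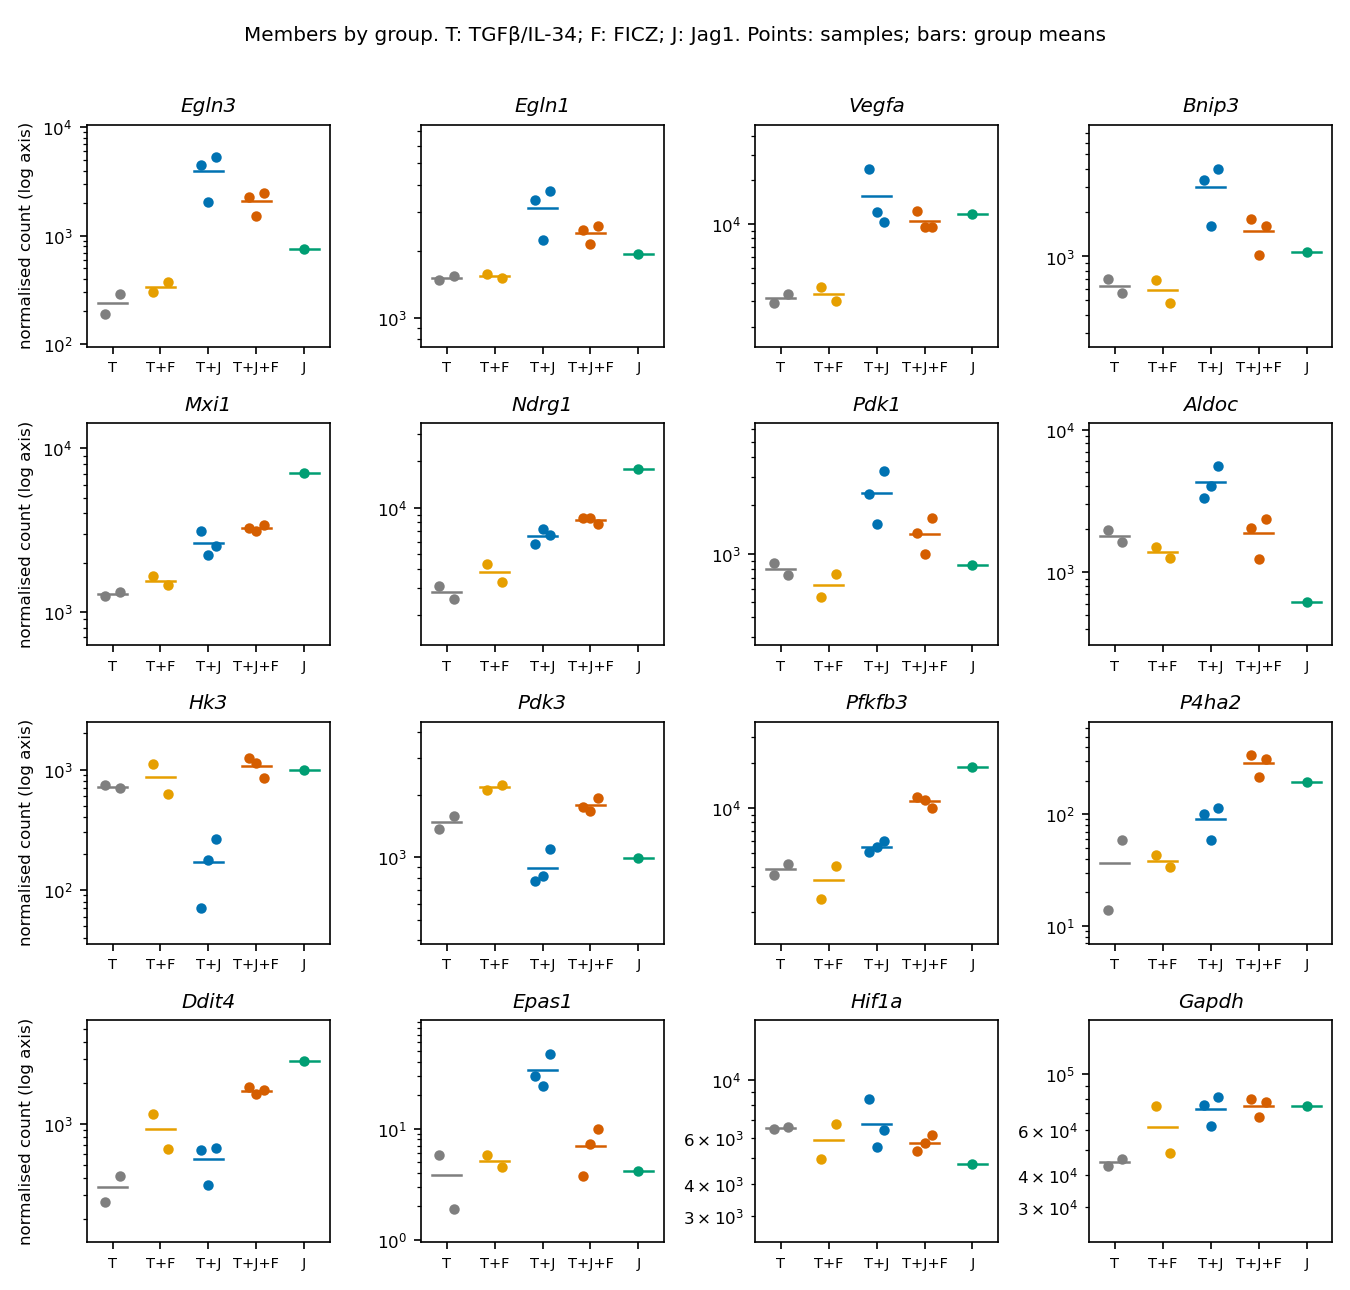
Normalised counts (log axis) of 16 members in each sample by group, where T is TGFβ/IL-34, F is FICZ and J is Jag1, and short bars are group means. The 3 TGFβ/IL-34/Jag1 samples are lowest for Hk3 (71.2 to 263) and highest for Epas1 (23.9 to 47.0).

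The other 9 genes of the HIF list were not called with Jag1. The estimates of 8 of them ran from 0.03 for Hif1a to 1.61 for Ankrd37. Adm, which encodes a vasodilator peptide, was listed at 0 in both TGFβ/IL-34 samples and at 5.21 to 11.9 with Jag1, so no fold is given for it. Gys1 and Gbe1, which build glycogen, had estimates of 0.72 ± 0.196 (limma, adjusted p 0.0573) and 0.99 ± 0.314 (limma, adjusted p 0.102). P4ha1, a collagen prolyl hydroxylase, had 0.61 ± 0.293 (limma, adjusted p 0.306), and the histone demethylase Kdm3a had 0.76 ± 0.338 (limma, adjusted p 0.259).

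In glycolysis, Tpi1 and Aldoc rose with Jag1. Tpi1, which interconverts the triose phosphates, was at 4165 and 4411 in TGFβ/IL-34, 6644 and 4323 with FICZ, 11379, 7363 and 13643 with Jag1, 9814, 6699 and 9558 with both, and 5074 in Jag1 only. The 3 Jag1 samples exceeded every sample without Jag1 and overlapped those with both. Tpi1 rose by 1.29 ± 0.289 (limma, adjusted p 0.0265). Aldoc, the minor aldolase here, was at 1966 and 1624 in TGFβ/IL-34, 1497 and 1248 with FICZ, 3315, 3995 and 5532 with Jag1, 2031, 1233 and 2367 with both, and 613 in Jag1 only. Its 3 Jag1 samples stood above all the other 8. Aldoc rose with Jag1 by 1.23 ± 0.294 (limma, adjusted p 0.0342) and made up 3.62% ± 0.478 (SD, n = 2) of the aldolase sum per kilobase in TGFβ/IL-34 samples, against 4.86% ± 1.34 (SD, n = 3) in Jag1 samples, where the shares overlapped.

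The most abundant enzymes had estimates above 0 but were not called. Gapdh, the dehydrogenase of the middle of the pathway and the reference gene of the study's RT-PCR, was at 43349.7 and 46337 in TGFβ/IL-34, 74688 and 48756 with FICZ, 75407, 62294 and 81399.7 with Jag1, 79949, 67620.3 and 77299.5 with both, and 74604 in Jag1 only. Both TGFβ/IL-34 samples were below all others. The estimate for Jag1 against TGFβ/IL-34 was 0.70 ± 0.245 (limma, adjusted p 0.141). Ldha, which makes lactate from pyruvate, was at 12900.4 and 12839 in TGFβ/IL-34, 16343 and 13869 with FICZ, 17239.8, 18489 and 26287 with Jag1, 20568, 16655 and 20327 with both, and 11957 in Jag1 only. Both TGFβ/IL-34 samples were below the other 8 samples with the cytokines and above Jag1 only. The estimate for Jag1 was 0.66 ± 0.214 (limma, adjusted p 0.11). Pgk1, the first ATP-making enzyme, was at 8707 and 8718 in TGFβ/IL-34, 13164 and 9114 with FICZ, 17580.5, 12152 and 20929 with Jag1, 20383, 15197 and 18607 with both, and 11632 in Jag1 only. Its Jag1 samples were above both TGFβ/IL-34 samples and overlapped TGFβ/IL-34/FICZ. The estimate was 0.92 ± 0.256 (limma, adjusted p 0.0631).

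Of the kinases that switch off pyruvate dehydrogenase, the members Pdk1 and Pdk3 moved in opposite directions with Jag1. Pdk1, a HIF-induced member, was at 873 and 737 in TGFβ/IL-34, 534 and 740.2 with FICZ, 2346, 1527 and 3263 with Jag1, 1343, 993 and 1667 with both, and 848 in Jag1 only. Pdk3 was at 1373 and 1589 in TGFβ/IL-34, 2099 and 2239 with FICZ, 769, 815 and 1098 with Jag1, 1746, 1666 and 1931 with both, and 998 in Jag1 only. Pdk1 was higher and Pdk3 lower in all 3 Jag1 samples than in all 4 without Jag1. Pdk1 rose by 1.5 ± 0.322 (limma, adjusted p 0.0215) and Pdk3 fell by 0.74 ± 0.188 (limma, adjusted p 0.0436). Per kilobase, Pdk1 was 20.4% ± 3.59 (SD, n = 2) of the sum of both in TGFβ/IL-34, 12% ± 1.94 (SD, n = 2) with FICZ, 54.5% ± 6.80 (SD, n = 3) with Jag1 and 25.6% ± 3.54 (SD, n = 3) with both, so it was the larger share in the mean of the Jag1 group alone.

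Hk3, a hexokinase of myeloid cells, fell with Jag1. It was at 741 and 697 in TGFβ/IL-34, 1117 and 625 with FICZ, 71.2, 178 and 263 with Jag1, 1246, 1143 and 852 with both, and 999 in Jag1 only. The 3 Jag1 samples were below all the other 8. The fall was 2.26 ± 0.469 (log2 fold change, limma, adjusted p 0.0182), a 4.21-fold lower mean. Hk3 was 15.3% ± 1.07 (SD, n = 2) of the hexokinase sum per kilobase in TGFβ/IL-34, 5.19% ± 2.45 (SD, n = 3) with Jag1 and 20.5% ± 3.63 (SD, n = 3) with both. Hk1 and Hk2 had estimates of −0.39 and −0.42 with Jag1 and were not called.

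**Figure D3:**
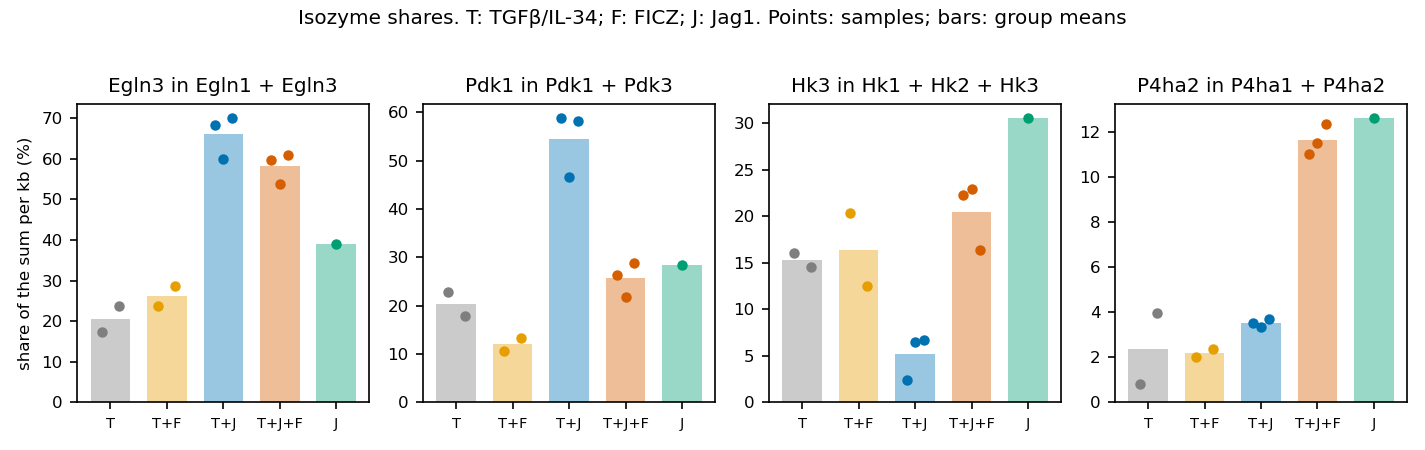
Share of 1 gene in the summed level per kilobase of its isozymes (percent, axis from 0) in each sample, with bars for group means, where T is TGFβ/IL-34, F is FICZ and J is Jag1. Pdk1 averages 54.5% with Jag1 and 25.6% with Jag1 and FICZ, while P4ha2 averages 3.53% and 11.6%.

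The number of calls with Jag1 depended on the pair of TGFβ/IL-34 samples. With all samples 12 members and 6.6% of all genes were called. Without TGFβ/IL-34 replicate 1 or 2, which left 1 sample in that group, fewer members and fewer of all genes were called. Without TGFβ/IL-34/Jag1 replicate 1, 7 members and 4.35% of all genes were called. Without its replicate 3 these were 7 and 4.81%. Egln3 and Vegfa were called in each of these fits. Ndrg1 was lost only without TGFβ/IL-34 replicate 2 (limma, adjusted p 0.075), and Bnip3 only without TGFβ/IL-34 replicate 1 (limma, adjusted p 0.0519) or 2 (limma, adjusted p 0.11). Hk3 and Mxi1 were called in 3 of the 5 fits, and Tpi1, Aldoc, Pdk1, Pdk3 and Egln1 in 1. Without the filter on low values the calls of Tpi1 (limma, adjusted p 0.0554), Aldoc (limma, adjusted p 0.0681) and Pdk3 (limma, adjusted p 0.0506) were lost. The Pdk3 call was also lost with a term for the code in the sample descriptions (limma, adjusted p 0.0564) and with only the compared groups in the fit (limma, adjusted p 0.0509).

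When FICZ was added to Jag1, 9 of the 37 members were called, 6 higher and 3 lower, where 17.7% of all genes tested were called (10.9% higher and 6.71% lower). The median log2 fold change was −0.17 over the members, −0.37 over the HIF list, −0.01 over glycolysis and −0.01 over all genes. This comparison shares the Jag1 samples with the comparison of Jag1 against TGFβ/IL-34, so values of both are given side by side and are not independent. Hk3 rose by 2.83 ± 0.42 (limma, adjusted p 0.00126), Pdk3 rose by 1.01 ± 0.168 (limma, adjusted p 0.00234), and both had fallen with Jag1. Aldoc fell by 1.21 ± 0.263 (limma, adjusted p 0.00983) after a rise of 1.23 with Jag1.

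Pfkfb3, P4ha2 and Ddit4 rose with FICZ in the presence of Jag1 and had not been called with Jag1 alone. Pfkfb3, which makes the activator of phosphofructokinase, was at 3560.4 and 4175 in TGFβ/IL-34, 2431 and 4074 with FICZ, 5031, 5430.4 and 5998 with Jag1, 11916, 11398 and 9998 with both, and 19058 in Jag1 only. The samples with both agents were above every other sample with TGFβ and IL-34, and the Jag1 only sample was higher still. Pfkfb3 rose by 1.02 ± 0.196 (limma, adjusted p 0.00516). Ddit4, an inhibitor of mTORC1 induced by stress, was at 266 and 413 in TGFβ/IL-34, 1183 and 649 with FICZ, 644, 355 and 664 with Jag1, 1875, 1647 and 1764 with both, and 2900.3 in Jag1 only. The 3 samples with both were close together and above the other 7 with TGFβ and IL-34. Ddit4 rose by 1.72 ± 0.3 (limma, adjusted p 0.00303).

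P4ha2, a hydroxylase of collagen prolines, was at 13.8 and 59.2 in TGFβ/IL-34, 42.9 and 33.8 with FICZ, 99.9, 58.7 and 114 with Jag1, 339, 219 and 312 with both, and 194 in Jag1 only. Its samples with both agents were above all others. P4ha2 rose by 1.70 ± 0.491 (limma, adjusted p 0.0381), and its share of the sum of P4ha1 and P4ha2 per kilobase went from 3.53% ± 0.164 to 11.6% ± 0.674 (SD, n = 3 each). With the replicate number as a block the call was lost (limma, adjusted p 0.0619), as it was without the filter on low values (limma, adjusted p 0.0711) and in all 6 fits without 1 sample. Collagen hydroxylases are also made by stromal cells. The summed stromal markers of replicates 1, 2 and 3 were 718, 1877 and 4961 with both agents, where P4ha2 was 339, 219 and 312. In the Jag1 samples the sums were 635, 1120 and 416, where P4ha2 was 99.9, 58.7 and 114. Without Jag1 the sums were 14.8 to 23.9 in TGFβ/IL-34 and 23.4 to 38.0 with FICZ, where P4ha2 was 13.8 to 59.2. The part of stromal cells in the P4ha2 values was not tested.

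Hk1, the widespread hexokinase, rose by 0.58 ± 0.142 (limma, adjusted p 0.0183), from 2029 to 2664 with Jag1 to 3237 to 3411 with both. Pdha1, the catalytic subunit of pyruvate dehydrogenase, fell by 0.44 ± 0.133 (limma, adjusted p 0.0475), from 2319 to 2704 to 1756 to 1952. The Pdha1 call was lost with the replicate block (limma, adjusted p 0.0539) and without any 1 sample, and Hk1 and Epas1 each kept their calls in 1 of the 6 fits without 1 sample. Hk3, Pfkfb3, Aldoc, Pdk3 and Ddit4 kept theirs in all 6.

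Egln3, Bnip3, Vegfa, Egln1 and Pdk1 were picked among the HIF-induced genes that had risen with Jag1, in the Jag1 samples that both comparisons share. Each was lower with FICZ in 3 of 3 pairs of samples with the same replicate number. The share of all genes lower in every pair was not computed. Other members were also lower in 3 of 3 pairs, among them Gpi1, Aldoa, Tpi1, Eno1 and Gys1. Hk1, Hk2, Hk3, Pfkl, Pfkfb3 and Pdk3 were higher in 3 of 3. Being lower in every pair was thus not particular to the picked genes. The unpaired test called none of the picked genes. Estimates were −0.84 ± 0.345 for Egln3 (limma, adjusted p 0.13), −0.94 ± 0.34 for Bnip3 (limma, adjusted p 0.085), −0.48 ± 0.281 for Vegfa (limma, adjusted p 0.299), −0.34 ± 0.191 for Egln1 (limma, adjusted p 0.272) and −0.80 ± 0.288 for Pdk1 (limma, adjusted p 0.086). With the replicate number as a block, Bnip3 fell by 0.94 ± 0.197 (limma, adjusted p 0.0127) and Pdk1 fell by 0.80 ± 0.22 (limma, adjusted p 0.0401), while Egln3 (limma, adjusted p 0.115), Vegfa (limma, adjusted p 0.207) and Egln1 (limma, adjusted p 0.217) were not called. The blocked fit called 9 members and 17.8% of all genes. Its spread also came from the TGFβ/IL-34 samples, whose replicate numbers do not follow the experiments. Mxi1 and Ndrg1, which had also risen with Jag1, went the other way. Both were higher with FICZ in 3 of 3 pairs, with unpaired estimates of 0.33 and 0.34. Ddit4 and P4ha2 of the HIF list were also higher in 3 of 3 pairs. At an unadjusted p under 0.05, 15 members passed, 6 higher and 9 lower, where 30.2% of all genes did. Gapdh and Ldha had estimates of 0.04 and −0.09 whose sign depended on single samples.

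**Figure D4:**
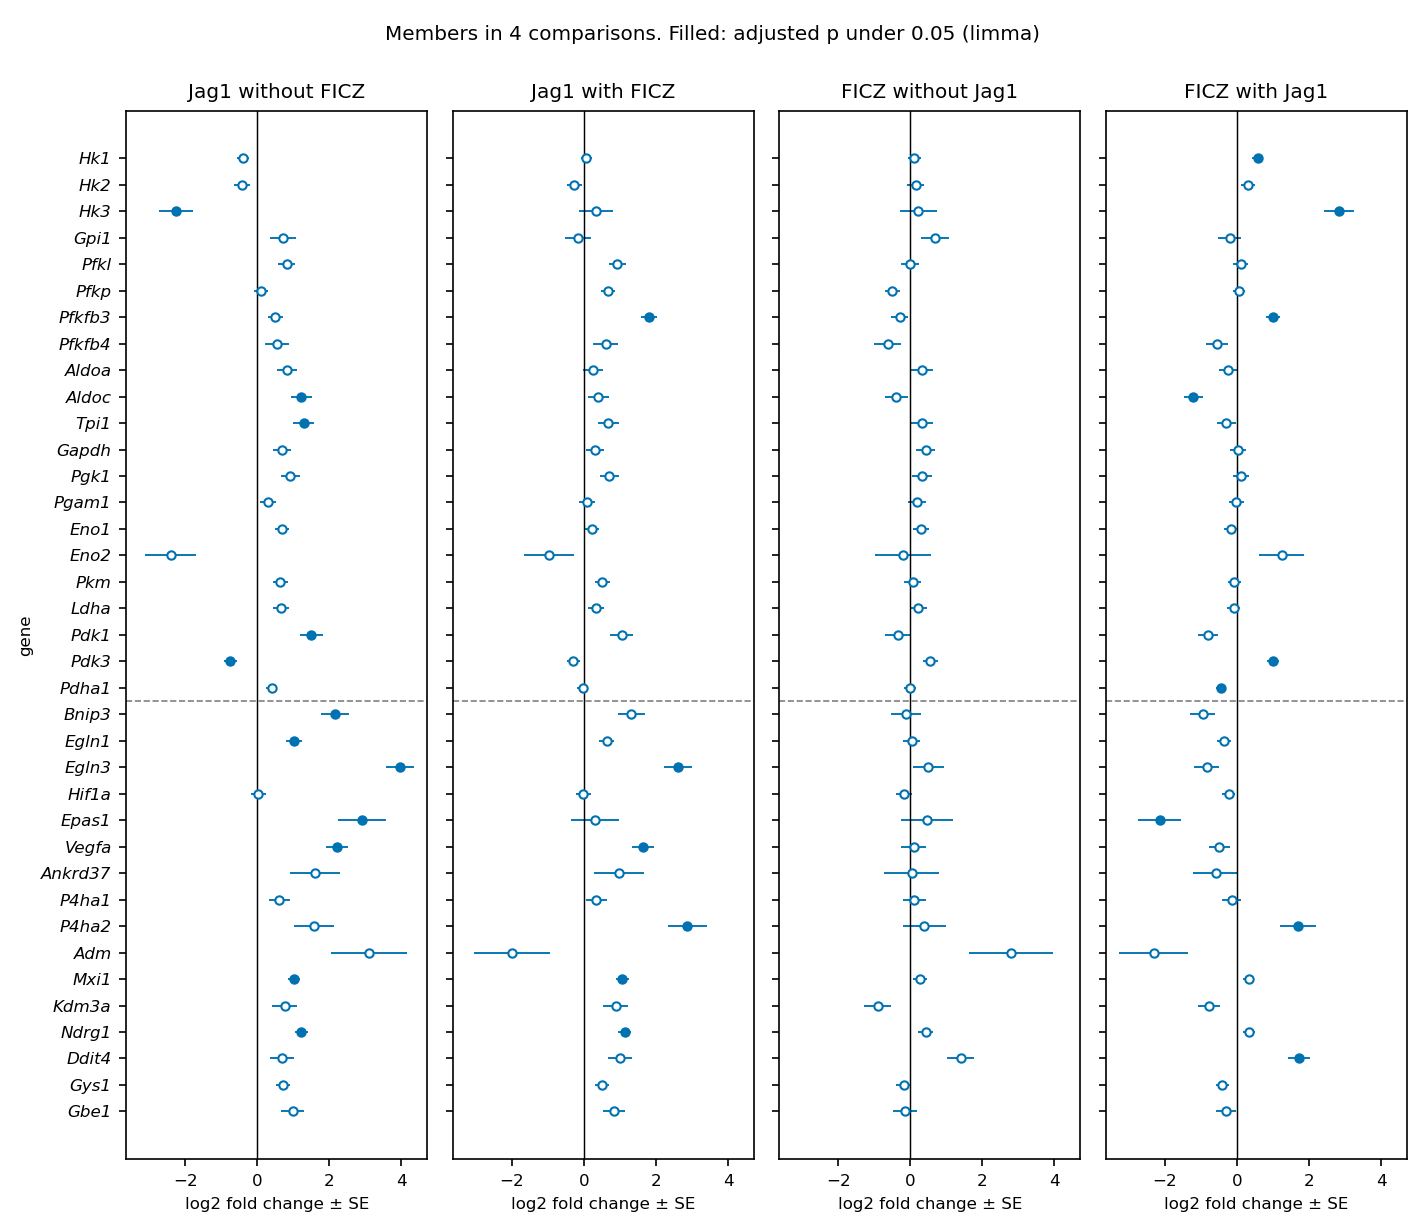
Log2 fold change ± SE of the 37 members in 4 comparisons, with filled points for an adjusted p under 0.05 (limma) and a dashed line between glycolysis and the HIF list. All 16 HIF genes lie above 0 for Jag1 without FICZ, and no point is filled for FICZ without Jag1.

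Without Jag1, no member passed the test for FICZ. None of the 37 was called (limma), where 0.0229% of all genes were, and at an unadjusted p under 0.05 there were 5 members and 2284 of 13095 genes. Apart from Adm, which was at 16.1 and 1.77 with FICZ, estimates ran from −0.90 ± 0.371 for Kdm3a to 1.4 ± 0.368 for Ddit4 (limma, adjusted p 0.285 and 0.279). The median was 0.12 over the members and −0.02 over all genes. Leaving out TGFβ/IL-34/FICZ replicate 2 left 8 members called, among them Gpi1 at 1.38 and Kdm3a at −1.58, in a fit that called 5734 genes (43.9%) and took replicate 1 to vary like the other groups. The Ahr target Cyp1a1, a check of the FICZ label, was at 68.1 and 100.1 in TGFβ/IL-34 and 2079 and 1933 with FICZ, and rose by 4.59 ± 0.429 (limma, adjusted p 0.00994).

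In the presence of FICZ, adding Jag1 raised 6 of the 37 members and lowered none, where 2.02% of all genes were called. P4ha2 rose by 2.87 ± 0.549 (limma, adjusted p 0.0294), Egln3 by 2.61 ± 0.385 (limma, adjusted p 0.0118) and Pfkfb3 by 1.81 ± 0.219 (limma, adjusted p 0.00607). Vegfa rose by 1.64 ± 0.314 (limma, adjusted p 0.0294), Ndrg1 by 1.14 ± 0.182 (limma, adjusted p 0.0155) and Mxi1 by 1.07 ± 0.17 (limma, adjusted p 0.015). The count was 0 with weights per sample or with only these groups in the fit. It was 2 without TGFβ/IL-34/Jag1/FICZ replicate 2, where 0.414% of all genes were called. It was 1 without replicate 1 or 3 of that group, where 0.529% and 0.553% of all genes were called. It rose without TGFβ/IL-34/FICZ replicate 2, which left 1 sample in that group. The P4ha2 call was lost with the replicate block (limma, adjusted p 0.0784), and without the filter both P4ha2 (limma, adjusted p 0.0668) and Vegfa (limma, adjusted p 0.0664) were lost.

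Both agents together raised 8 members against TGFβ/IL-34 and lowered none, where 4.48% of all genes were called. Beside the estimates for Jag1 alone, those for both were 3.12 ± 0.385 and 3.96 for Egln3, 1.73 ± 0.314 and 2.21 for Vegfa, 1.35 ± 0.17 and 1.01 for Mxi1, and 1.57 ± 0.182 and 1.22 for Ndrg1. P4ha2 rose by 3.26 ± 0.549, Ddit4 by 2.40 ± 0.336, Pfkfb3 by 1.52 ± 0.219 and Pgk1 by 1.04 ± 0.256, with adjusted p of 0.0104, 0.00524, 0.00549 and 0.0496 (limma). Without TGFβ/IL-34/Jag1/FICZ replicate 1 the count was 5, where 1.46% of all genes were called. Without TGFβ/IL-34 replicate 1, which left 1 sample in that group, the call of Ndrg1 was kept and the others were lost. The Pgk1 call was lost in all 5 fits without 1 sample and without the filter (limma, adjusted p 0.0815).

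An interaction term compared the effect of FICZ with Jag1 against its effect without Jag1. None of the 37 members was called (limma), where 1.39% of all genes were, and at an unadjusted p under 0.05 there were 5 members and 2458 genes. The nearest to the threshold were Pfkfb3 at 1.31 ± 0.31 (limma, adjusted p 0.0764) and Hk3 at 2.61 ± 0.663 (limma, adjusted p 0.099). Leaving out TGFβ/IL-34/FICZ replicate 2 left 8 members called in a fit that called 42.1% of all genes and took replicate 1 to vary like the other groups. So for no member was a difference between the effects of FICZ in these settings shown.

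Other genes of glucose and HIF biology were counted from a list of 59, of which 53 passed the filter. With Jag1 and no FICZ, 4 rose and 3 fell, where 6.6% of all genes tested were called. Slc16a3, the lactate exporter MCT4, rose by 1.12 ± 0.221 (limma, adjusted p 0.0139), and the adenylate kinase Ak4 rose by 3.18 ± 0.786 (limma, adjusted p 0.0391). Pgm1 and Ugp2, on the way to glycogen, rose by 1.01 and 0.72. Pcx, the pyruvate carboxylase, fell by 1.04 ± 0.184 (limma, adjusted p 0.00804), and the carbonic anhydrase Car12 fell by 3.98 ± 0.84 (limma, adjusted p 0.0196) from 48.2 and 82.2 to 0 to 7.38.

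Slc2a6, a hexose transporter of myeloid cells, is shown in full because its interaction was called. It was at 4885 and 5098 in TGFβ/IL-34, 6043 and 5097 with FICZ, 1120.0, 1077 and 1072 with Jag1, 2623, 2698 and 2714 with both, and 1248 in Jag1 only. The samples of each Jag1 group lay close together and below every sample without Jag1. Slc2a6 fell with Jag1 by 2.19 ± 0.142 (limma, adjusted p 4.11e-05), rose by 1.30 ± 0.127 when FICZ was added to Jag1 (limma, adjusted p 0.000128) and had the only interaction called among the 53. Slc2a1, the common glucose transporter GLUT1, was at 1930.1 to 3142 in the 10 samples with TGFβ and IL-34 and was not called in any comparison.

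With FICZ added to Jag1, 7 of the 53 rose and 5 fell, where 17.7% of all genes tested were called. Slc16a1, the lactate transporter MCT1, rose by 1.24 ± 0.24 (limma, adjusted p 0.00529). Arnt2, a relative of Arnt, rose from levels of 0 to 1.73 with Jag1, all under the floor, to 47.7 to 66.9 with both (limma, adjusted p 0.00058). Arnt2 was at 0 and 0.796 with FICZ and no Jag1, and at 75.4 in the Jag1 only sample, which had no FICZ. Car12 rose by 5.84 ± 0.752 (limma, adjusted p 0.000562). Mpc1, the mitochondrial pyruvate carrier, fell by 0.77 ± 0.183 (limma, adjusted p 0.0157), as did Pdhx by 0.95 and Pdk2 by 0.73. Jag1 with FICZ called 5 of the 53, 2 higher, where 2.02% of all genes were called (limma). Both agents together called 6, 4 higher, where 4.48% were. FICZ without Jag1 called none, where 0.0229% were.

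In the Jag1 only sample, 16 of the 37 members lay outside the range of the other 10 samples, 5 above and 11 below. Of all genes tested, 20.1% lay above and 18.1% below. Glycolysis had 9 of 21 genes below, led by Hk2 at 649.5 against a lowest value of 2446 elsewhere (3.77-fold) and by Aldoc (2.01-fold). Above the range were Mxi1 (2.10-fold), Ndrg1 (2.07-fold), Eno2 (1.75-fold), Pfkfb3 (1.6-fold) and Ddit4 (1.55-fold). Egln3, Vegfa and Bnip3 lay within the range.

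Markers of other cells moved with the groups. The summed level of 8 OP9 stroma genes was 14.8 to 23.9 in TGFβ/IL-34 and 23.4 to 38.0 with FICZ, against 416 to 1120 with Jag1, 718 to 4961 with both and 688 in Jag1 only. All 8 were called higher with both agents against neither (limma), and Col1a2 and Fbln2 were at 0 in both TGFβ/IL-34 samples. Within the Jag1 samples Egln3 was 4486, 2063 and 5296 where the stroma sum was 635, 1120 and 416. In the samples with both agents Egln3 was 2265, 1533 and 2472 where the stroma sum was 718, 1877 and 4961. The summed level of 4 cycling genes was 4106 to 4864, 6256 to 6796, 914 to 1902 and 8919 to 9246 in the same order of 4 groups, and all 4 were called lower with Jag1 and higher when FICZ was added to Jag1. Granulocyte precursor genes summed to 321 to 1127, 2510 to 4362, 151 to 310 and 5610 to 8463, and 5 of 6 were called higher when FICZ was added to Jag1. Of the 7 monocyte and macrophage genes, 4 were called lower with Jag1, among them Lyz2, which was at 4315 and 8381 in TGFβ/IL-34 and 327 to 929.6 with Jag1, and Ly6c2, at 177 and 436 against 15 to 23.6. When FICZ was added to Jag1, Lyz2, Ly6c2 and Plac8 were called higher and Csf1r lower. Of the 7, Lyz2, Ly6c2 and Plac8 were called in the direction of Hk3 in both comparisons, and the rest were not. The means of Itgam went the other way, at 4294 in TGFβ/IL-34, 11497 ± 7569 (SD, n = 3) with Jag1 and 7129 with both. Mrc1 had means of 104, 16.4 and 1.15 in the same 3 groups. The 7 together summed to 48201 to 52643, 25542 to 41306, 25230.2 to 60365 and 24238 to 34106. Mast cell and basophil genes summed to 1666 to 2139, 5499.9 to 5735, 1128 to 2434 and 4324 to 6257, with Cpa3 and Mcpt8, 2 of the 3 tested, called higher when FICZ was added to Jag1 and Fcer1a at 0 in all samples. The part of these lists in the results on the members was not tested.

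**Figure D5:**
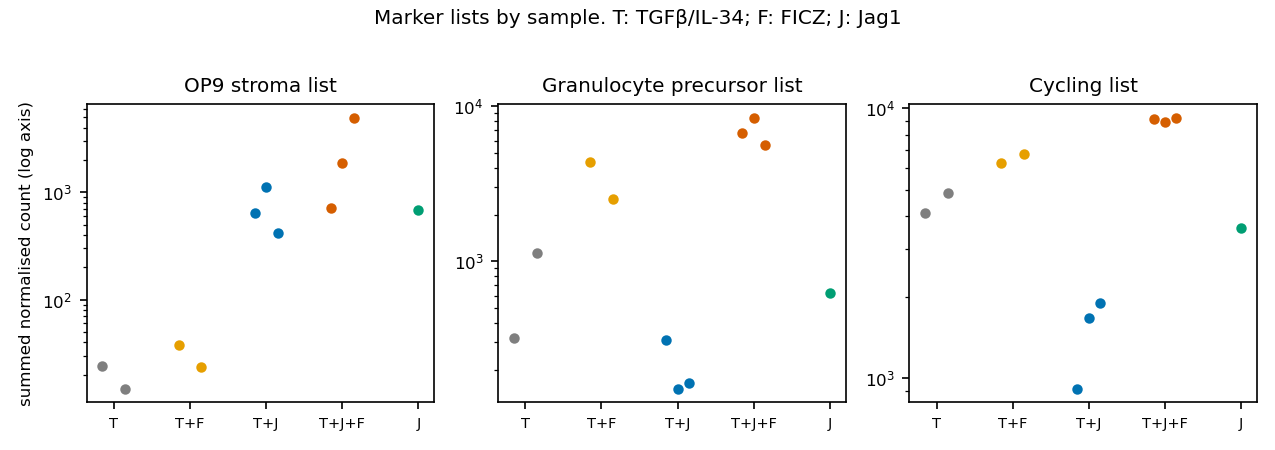
Summed normalised counts (log axis) of 3 marker lists in each sample by group, where T is TGFβ/IL-34, F is FICZ and J is Jag1. The stroma sums of the 7 samples with Jag1 (416 to 4961) are all above those of the 4 samples without it (14.8 to 38.0).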

How the data were processed

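The authors sequenced RNA of sorted cells, quantified it with salmon on GRCm39 transcripts and scaled it with DESeq2. What was deposited by the authors is 1 normalized signal value for each gene and sample, here called normalised counts. These values are not whole reads, so no count model was run. Versions are not given in the sources used here. The condition in the authors' metadata matched the labels for 11 of 11 samples. For TGFβ/IL-34 replicate 1 the metadata and the description gave unlike experiment codes.

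Genes that reached 10 normalised counts in 2 or more samples (13095) were fitted as log2(value + 1) with limma 3.58.1 under R 4.3.3 (lmFit, eBayes with trend), with 1 mean per group, all 11 samples, no covariate and 6 residual degrees of freedom. Fold changes on this scale understate the change of low genes. Tests were two-sided, adjusted by Benjamini-Hochberg over all genes tested, threshold 0.05, and the script was tested on simulated data. Levels per kilobase used the canonical transcript of GENCODE vM39. Aldoa was taken from its protein-coding row. Intervals and floors of 3 reads cover counting error or sample spread only.

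The members and lists were chosen with earlier results of these data known. Values in every sample are given for members called with a log2 fold change of at least 1 in size and for Hif1a, Epas1, Gapdh, Ldha, Vegfa and Bnip3, and Slc2a6 was added after its values were seen. Between the Jag1 and the Jag1/FICZ groups with TGFβ/IL-34, samples of the same replicate number carried the same experiment code, and their deviations from the group means correlated at 0.153, 0.122 and 0.166, so the numbers pair these 2 groups. Replicates 1 and 2 of the 2 FICZ groups also carried the same codes, with lower correlations of 0.0591 and 0.0578, and were not taken as paired. In TGFβ/IL-34 the numbers did not match the codes of the other groups. In comparisons with that group the replicate block therefore does not follow the experiments. The block was a term in the fit of all 11 samples. SEs and adjusted p of the blocked fit for FICZ with Jag1 therefore also rest on samples whose numbers do not follow the experiments. Alternatives were other pseudocounts, no filter, quantile normalization, sample weights, only the groups compared, terms for replicate, experiment code or flow cell, and each sample left out.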

Additional observations from a re-analysis of the deposited data

Results flagged for a closer look

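The effect of FICZ differed with and without Jag1, by the interaction term of the fit over all genes, in 8 genes of the lists, none of them among the 37 members. The interaction was 1.14 ± 0.201 for Slc2a6 (log2, limma, adjusted p 0.0365). It was 4.41 ± 0.554 for Cyp1a1 (limma, adjusted p 0.0082) and 8.55 ± 0.582 for Cyp1b1 (limma, adjusted p 0.00048), both Ahr target genes. Cyp1b1 was at 2570.2 and 2556 in TGFβ/IL-34, 3780.1 and 7391 with FICZ, 1.04, 4.76 and 2.80 with Jag1 and 2868, 2996 and 2384 with both. Among the marker genes it was 4.01 for Ly6c2, 6.28 for Elane, 2.12 for Cpa3, 2.62 for Mki67 and 1.71 for Top2a (limma, adjusted p 0.0135 to 0.0472). No group held 4 or more samples, so single samples were not tested for standing apart.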

How the results depend on the processing

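Of 35 calls of members over the 6 comparisons, 9 were kept in every fit without 1 sample, 21 in every other setting and 8 in all. With all samples, members called numbered 9 for FICZ with Jag1, 12 for Jag1 without FICZ and 0 for FICZ without Jag1. They numbered 6 for Jag1 with FICZ, 8 for both together and 0 for the interaction. Without 1 sample of a group of 3 they numbered 5 to 9 for FICZ with Jag1 (10.7% to 14% of all genes called). They then numbered 7 to 13 for Jag1 without FICZ (4.35% to 5.47%) and 1 to 2 for Jag1 with FICZ (0.414% to 0.553%). For both together they numbered 5 to 7 (1.4% to 2.34%), and for the interaction 0 (0.146% to 0.844%). Members called also changed in number without 1 sample of a group of 2, which left 1 sample there. With sample weights they numbered 29 for Jag1 without FICZ (20.1% of all genes called), 0 for Jag1 with FICZ (0 genes in all) and 20 for both together (27.2%). With only the groups compared they numbered 0 for Jag1 with FICZ (0.0637%) and 22 for both together (24.2%). With a term for the code in the authors' metadata, chosen after seeing the data, Jag1 without FICZ gave 20 (7.92%). The estimate for Gapdh when FICZ was added to Jag1 turned from 0.04 to −0.0728 with a flow cell term, and ran from −0.0675 (without TGFβ/IL-34/Jag1 replicate 2) to 0.125 without 1 sample, with −0.00565 without TGFβ/IL-34/Jag1/FICZ replicate 1. That for Ldha turned from −0.09 and ran from −0.207 to 0.0971 (without TGFβ/IL-34/Jag1 replicate 3) without 1 sample, with 0.00965 without TGFβ/IL-34/Jag1/FICZ replicate 2. The cause was not tested. With the replicate number as a block, the counts were 9, 11, 0, 5, 9 and 0 in the order above, and the calls lost were Pdha1 and P4ha2 (FICZ with Jag1), Epas1 (Jag1 without FICZ) and P4ha2 (Jag1 with FICZ). Those gained were Bnip3 and Pdk1 (FICZ with Jag1) and Bnip3 (both together, adjusted p 0.0435, limma). The block changed no other call, and in the comparisons with TGFβ/IL-34 it does not follow the experiment codes. Groups of 2 and 3 samples and counts near the floor (Epas1, Adm) limit the precision.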
